A study of Mus musculus with 6 samples.

Results

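The mitosis and spindle genes are a group of 40 protein-coding genes that drive the last part of the cell cycle, from the entry into mitosis to the splitting of the cell. They were picked by name from the 54532 genes of the deposited count table. Each of the 40 was listed once, all 40 passed the filter on low counts that left 13874 genes, and between 412 and 19763 reads were counted for a member in a library. Their RNA was measured in cancer cells of 2208L tumours carried by Balb/c mice, labelled as untreated. The CTC group has 3 libraries of circulating tumour cells, grown on from blood before RNA was taken. The PT group has 3 libraries from primary tumours, dissociated and then enriched for tumour cells, each matched by its title to a CTC library. The titles do not say that a matched pair comes from the same mouse. The labels give no age, sex or culture time, and describe propagation for CTC only, so growth outside the animal and the blood origin cannot be told apart. Library totals lay between 23845953 and 27897320 reads.

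In mitosis, cyclin B with the kinase CDK1 starts chromosome condensation and spindle assembly. Kinetochores then couple the chromosomes to microtubules, and the spindle assembly checkpoint holds back the anaphase-promoting complex (APC/C) until every chromosome is attached. APC/C with its activator CDC20 next marks securin and cyclin B for destruction, separase cuts the cohesin rings, and the cell divides. The RNAs of these genes accumulate in G2 and M, so in a mixed culture or tumour their level depends on the share of dividing cells. In bulk RNA, fewer dividing cells and less of these RNAs per cell cannot be told apart.

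Most of these genes share a promoter design. In resting and early cycling cells the DREAM complex represses them through a CHR element, and from G2 on the MYBL2-MuvB complex and FOXM1 activate them through the same element, next to CCAAT boxes that bind NF-Y. RefSeq promoter windows (GRCm38.p6, 250 bases before to 50 after the transcription start) were matched by symbol for 33 of the 40 genes, 36 windows in all. The CHR letters TTTGAA or TTCGAA, read on both strands, were in 28 of the 36 windows (77.8%) against 19.2% of all 32851 windows of the same length. At least 2 CCAAT boxes, also on both strands, were in 19 windows (52.8%) against 11.7%, and at least 2 boxes together with a CHR match in 18 windows (50%) against 2.31%. Of 27 windows of DNA replication genes, 5 (18.5%) held the CHR letters, 10 (37%) held at least 2 CCAAT boxes and 3 (11.1%) held both, so CCAAT boxes were also more frequent there than in all windows. By gene, the CHR letters were in 25 of the 33, at least 2 boxes in 17 and both in 16. Of the 38 CHR matches, 26 (68.4%) began within 60 bases of the start, against 28% of the 7260 matches over all windows. Ect2, Prc1 and Bub3 have overlapping windows at alternative starts, so counts of windows and matches hold the same site more than once. CCAAT boxes 31 to 33 bases apart, a spacing known from cell-cycle promoters, were in 6 member windows (16.7%) against 0.971%. A match is a description of the letters and not a bound site.

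The following stretches run from 130 bases before to 30 after the start, 5′ to 3′, with CHR matches and CCAAT boxes (or ATTGG, the box on the other strand) in capitals. They are shown because they hold the shared layout in a cyclin, an APC/C activator, a centromere histone and a kinetochore subunit, and, last, a cyclin promoter with the boxes and no match to the CHR letters searched.
Ccnb2 (chr9:70421525-70421684, minus strand): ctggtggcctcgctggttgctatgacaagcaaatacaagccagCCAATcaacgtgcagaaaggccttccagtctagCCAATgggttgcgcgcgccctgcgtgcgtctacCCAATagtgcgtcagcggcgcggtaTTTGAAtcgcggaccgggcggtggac
Cdc20 (chr4:118437314-118437473, minus strand): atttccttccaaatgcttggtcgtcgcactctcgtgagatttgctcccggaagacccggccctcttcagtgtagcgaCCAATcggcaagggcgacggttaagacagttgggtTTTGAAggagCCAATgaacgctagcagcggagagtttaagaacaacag
Cenpa (chr5:30666756-30666915, plus strand): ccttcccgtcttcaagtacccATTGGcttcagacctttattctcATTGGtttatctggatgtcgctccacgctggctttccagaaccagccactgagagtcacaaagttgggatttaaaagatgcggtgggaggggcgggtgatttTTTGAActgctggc
Spc25 (chr2:69206184-69206343, minus strand): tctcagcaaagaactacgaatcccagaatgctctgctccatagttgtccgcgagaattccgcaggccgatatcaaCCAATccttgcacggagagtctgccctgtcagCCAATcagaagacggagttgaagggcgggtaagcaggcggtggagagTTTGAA
Ccnb1 (chr13:100786457-100786616, minus strand): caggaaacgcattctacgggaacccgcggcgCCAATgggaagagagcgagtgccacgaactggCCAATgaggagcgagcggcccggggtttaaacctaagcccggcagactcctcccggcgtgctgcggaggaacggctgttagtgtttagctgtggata
In Ccnb2 3 boxes began 87, 54 and 21 bases before the start and a CHR match 5 bases after it (a second CHR match lies upstream of the part shown, 167 bases before the start). In Spc25 the boxes began 55 and 23 bases before the start and the CHR match at base 25 after it. In Ccnb1 the boxes began 99 and 67 bases before the start.

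**Figure D1:**
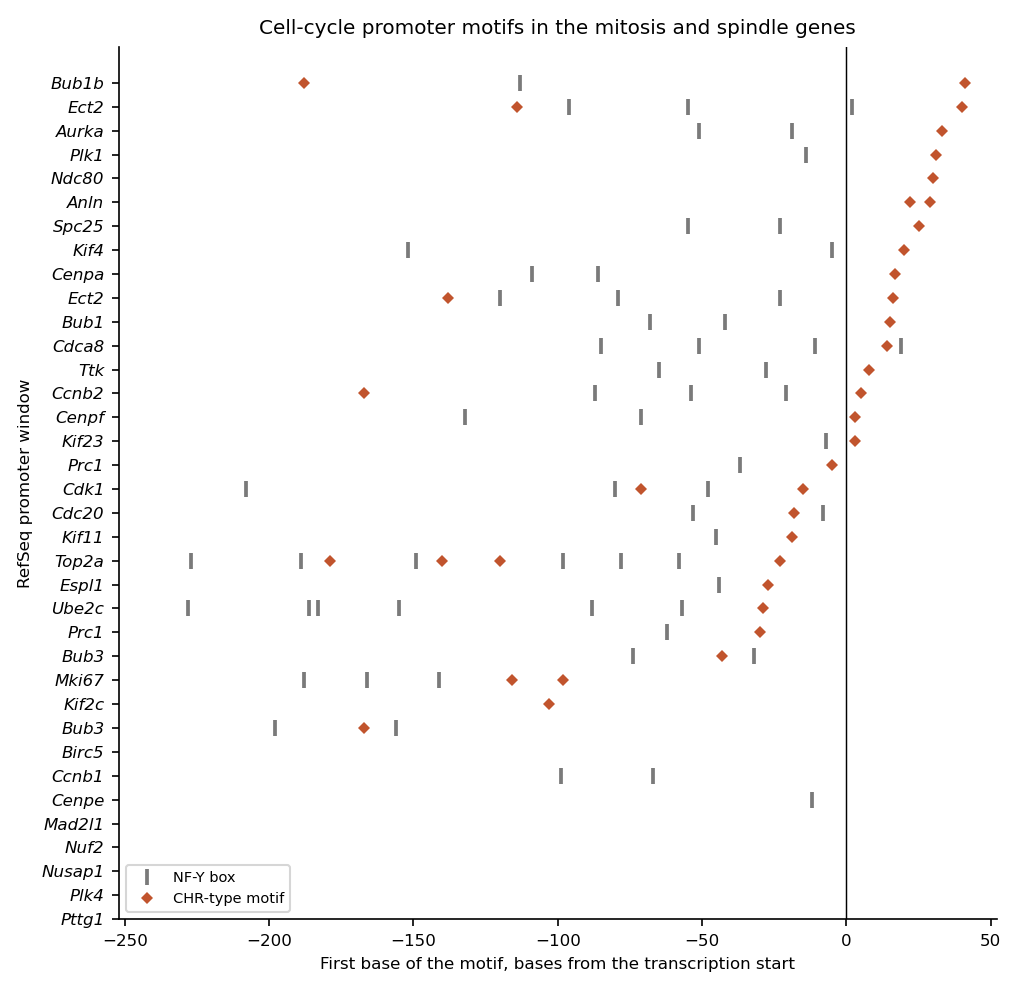
Position of CHR-type motifs (diamonds) and NF-Y boxes (bars) in the 36 RefSeq promoter windows of 33 mitosis and spindle genes, in bases from the transcription start (vertical line). Windows are ordered by their most downstream CHR-type match, and 28 of the 36 hold one.

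The mitosis and spindle genes were expressed in every library of both groups. Values below are CPM (the share of a library's counts scaled to a fixed total) after TMM scaling. Levels between genes are compared as CPM per kilobase of the deposited gene length, except where counts or CPM, not corrected for length, are named. In mean log2 CPM, not corrected for length, the lowest member lay above 50.5% of the genes tested, and the median member above 86.2%. Epithelial marker genes (Epcam, Cdh1, Krt8, Krt18, Krt19 and Cldn7) summed to between 2190 and 5089 CPM, as epithelial tumour cells carry. The 12 leukocyte markers summed to between 6.52 and 32 CPM in CTC and between 6.28 and 21.5 CPM in PT, with Cd52, Laptm5, Adgre1 and Ly6g at 0 in all libraries. The 6 fibroblast markers summed to between 8.89 and 49 CPM across CTC 1 to 3, and 15.2 and 65.5 CPM across PT 1 to 3, with Lum at 0. The part of other cells in the members' values was not tested.

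No mitosis or spindle gene was called as differing between CTC and PT. The quasi-likelihood test of edgeR, with p-values adjusted by Benjamini-Hochberg over all genes tested, called 0 of the 40 higher and 0 lower, as it called 0% of all genes in either direction. The smallest adjusted p of a member was 0.726 (over all genes 0.611). Limma-voom and edgeR with the matched pairs as a block called 0 members and 0% of all genes. DESeq2 called 0 members and 0.631% of all genes, and with the block 0 members and 1.87%. At an unadjusted p under 0.05 there was no member either, the smallest being 0.0828, against 6.62% of all genes. The fitted log2 fold change, CTC minus PT, was above 0 for 24 members and below 0 for 16, with a median of 0.12 beside 0.05 for all genes tested and a range from -0.46 to 0.61. For 22 of the 40 the 95% interval of the log2 fold change lay within 1 unit either side of 0. For the other 18 a difference beyond 1 unit was not excluded at this number of libraries. Over all 40 the half-widths of the intervals ran from 0.51 to 1.39, with a median of 0.71. The labels call the libraries of a group biological replicates and match each PT library to a CTC library.

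**Figure D2:**
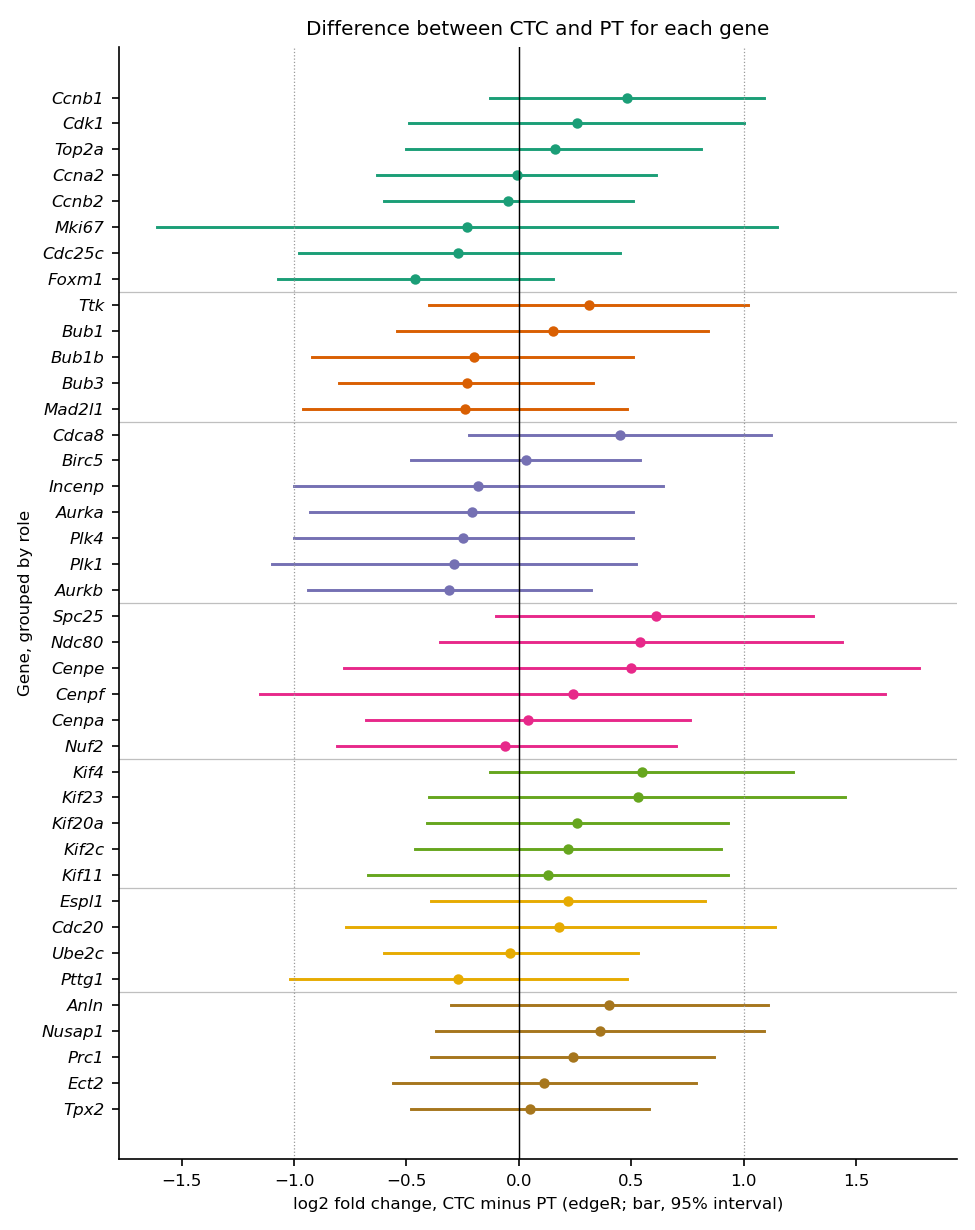
Log2 fold change of each of the 40 genes, CTC minus PT (edgeR; points), with 95% intervals (bars), grouped and coloured by role from the cyclin-CDK switch at the top to cytokinesis at the bottom. Every interval crosses 0, and dotted lines mark 1 unit either side.

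Within matched pairs the direction was mixed as well. The CTC library was above the PT library for 22 of the 40 genes in pair 1, for 26 in pair 2 and for 18 in pair 3. Over all 13874 genes tested the counts were 7304, 6875 and 6862. Over the 6659 tested genes in the members' range of expression they were 3452, 3617 and 2731. There were 5 genes higher in CTC in all 3 pairs, namely Ccnb1, Cdk1, Cdca8, Kif4 and Spc25 (against 15.4% of all genes tested), and Mki67 was lower in all 3 (1 of 40, against 15.4%). Both shares are below those of all genes.

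Of the cyclin-CDK switch, Ccnb1, the cyclin that carries CDK1 into mitosis (ENSMUSG00000041431, chromosome 13, 100778650 to 100786570, GRCm38), was at 229.9, 267.6 and 166.3 CPM in CTC 1, 2 and 3 and at 152.0, 166.0 and 159.0 CPM in PT 1, 2 and 3. It was the only member whose groups did not overlap (1 of 40, or 2.5%, against 12.1% of all genes, 5.95% higher in CTC and 6.16% lower), and CTC 3 lay next to PT 2. Its log2 fold change was 0.48 (95% interval -0.13 to 1.09, SE 0.26, adjusted p = 0.726, edgeR). The 23 other tested genes within 2 Mb of it stood at medians of 0.60, 0.41 and -0.36 log2 units from their own means in CTC 1, 2 and 3 and at -0.39, 0.02 and -0.05 in PT 1, 2 and 3, and their part in the Ccnb1 values was not tested. Its pseudogene Ccnb1-ps is listed separately, and reads of near-identical copies may be split between them.

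Ccnb2, the second B cyclin and the member of this role with the highest level per kilobase, was at 111.2, 137.1 and 99.2 CPM across CTC 1 to 3, and 121.1, 124.7 and 113.2 CPM across PT 1 to 3, with full overlap and a log2 fold change of -0.05 (95% interval -0.60 to 0.51). Foxm1, the transcription factor that activates G2 and M genes (chromosome 6), had a fitted fold change below 0, at 146.2, 163.2 and 124.4 CPM across CTC 1 to 3, and 214.8, 154.9 and 228.1 CPM across PT 1 to 3. Only PT 2 fell within the CTC values, and the log2 fold change was -0.46 (95% interval -1.07 to 0.15, SE 0.26, adjusted p = 0.727, edgeR). Cdk1, the kinase that cyclin B activates, ranged from 177 to 351 CPM and the A cyclin Ccna2 from 170.2 to 253 CPM, both with overlap. Top2a, the topoisomerase that untangles sister chromatids, was the most counted member, at 616 ± 147 CPM over the CTC libraries and 552.6 ± 48.2 CPM over those of PT (SD, n = 3 each). Cdc25c, the phosphatase that switches CDK1 on, was the lowest of this role in CPM, at 23.2 ± 5.11 and 27.9 ± 4.63.

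The genes of the spindle assembly checkpoint overlapped between the groups. Bub1b, which encodes the checkpoint inhibitor BUBR1, was at 84.1, 162.2 and 147.9 CPM across CTC 1 to 3, and 146.6, 173.3 and 133.9 CPM across PT 1 to 3. CTC 1 was the low library and the other 5 lay together, with a log2 fold change of -0.20 (95% interval -0.92 to 0.51). Bub3 (199.8 ± 28.3 and 234.8 ± 25.4 CPM), its partner Bub1 (65.5 ± 12.2 and 59.1 ± 17), Mad2l1, which encodes MAD2 (93.8 ± 20.8 and 110.6 ± 30.8), and the kinase gene Ttk (45.3 ± 14.7 and 36.5 ± 3.07) had log2 fold changes from -0.24 to 0.31.

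Among the mitotic kinases, Plk1, which drives mitotic entry and centrosome maturation, was at 128.2, 190.4 and 148.6 CPM across CTC 1 to 3, and 284.8, 135.7 and 152.2 CPM across PT 1 to 3. PT 1 alone stood apart; the log2 fold change of -0.29 was 0.12 without that library. Aurkb, the kinase of the chromosomal passenger complex, was at 84.9, 128.4 and 78.9 CPM across CTC 1 to 3, and 129.2, 110.9 and 123.1 CPM across PT 1 to 3. CTC 1 and 3 lay below all of PT and CTC 2 among them, with a log2 fold change of -0.31 (95% interval -0.94 to 0.32, SE 0.27, adjusted p = 0.791, edgeR).

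The other subunits of the passenger complex also overlapped between the groups. Birc5, which encodes survivin and was picked out after its values were seen, was the steadiest of the 40, from 113.2 to 128.2 CPM over the 6 libraries, and its log2 fold change was 0.03 (95% interval -0.48 to 0.54). Cdca8, which encodes borealin, was at 147 ± 37.5 CPM over the CTC libraries and 107.8 ± 19.1 CPM over those of PT, and Incenp, the scaffold, at 182.8 ± 18.5 and 207.6 ± 95.1 CPM, with PT 3 the highest library at 313 CPM. Aurka, the spindle pole kinase, was at 145.5 ± 44.4 and 168.7 ± 37.3 CPM and Plk4, which starts centriole duplication, at 49.4 ± 17.7 and 58.5 ± 2.73 CPM.

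The NDC80 complex, the microtubule grip of the kinetochore, held the largest fitted fold change of the group. Spc25, one of its subunits (ENSMUSG00000005233, chromosome 2, 69193895 to 69206194, GRCm38), was at 35.4, 24 and 31.1 CPM across CTC 1 to 3, and 17.7, 17.7 and 24 CPM across PT 1 to 3. CTC 2 and PT 3 met at 24 CPM, and the log2 fold change was 0.61 (95% interval -0.10 to 1.31, SE 0.31, adjusted p = 0.726, edgeR). Ndc80 itself, the member with the lowest level per kilobase, was at 47.5, 18.2 and 29.9 CPM across CTC 1 to 3, and 22.5, 19.1 and 24 CPM across PT 1 to 3. CTC 2 was the lowest of the 6 libraries and CTC 1 the highest, and the log2 fold change was 0.54 (95% interval -0.35 to 1.44, SE 0.39). The third subunit, Nuf2, was at 73.2 ± 15.4 and 76.2 ± 27.7 CPM, with a log2 fold change of -0.06.

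At the centromere, Cenpa, the histone variant that marks it, was at 126.2, 250.4 and 179.3 CPM across CTC 1 to 3, and 180.8, 206.9 and 154.0 CPM across PT 1 to 3. CTC 1 and 2 were the lowest and highest of all 6 libraries, so the PT values lay inside the CTC range, and the log2 fold change was 0.04 (95% interval -0.68 to 0.76). Cenpe, a kinetochore motor, and Cenpf, a large kinetochore protein, varied by 5.38-fold and 4.09-fold between their highest and lowest libraries.

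All 5 mitotic kinesin genes had a fold change above 0 without passing the test, as had 7504 of the 13874 genes tested. The values ran from 0.13 for Kif11, the motor that pushes spindle poles apart, to 0.55 for Kif4, a chromosome-arm motor. By pair, 4, 4 and 2 of the 5 were higher in CTC in pairs 1, 2 and 3. Kif4 was at 110.0, 65.2 and 72.7 CPM across CTC 1 to 3, and 51.4, 50.9 and 67.3 CPM across PT 1 to 3, so that PT 3 lay above CTC 2 (SE 0.29, 95% interval -0.13 to 1.22, adjusted p = 0.726, edgeR). Kif20a, a motor of the central spindle, was at 99.7, 134.6 and 122.1 CPM across CTC 1 to 3, and 73.8, 93.1 and 130.8 CPM across PT 1 to 3, also with overlap. Kif23, of the centralspindlin complex, was at 161.9 CPM in CTC 1 and between 50.1 and 100 CPM elsewhere, and Kif2c, a microtubule depolymerase, was at 88.3 ± 18.7 and 76 ± 19.7 CPM. The labels and the table do not state strand, and Kif4 and Kif20a overlap Pdzd11 and Cdc23, on the opposite strand and with 8315 and 8050 reads over all libraries beside 10669 and 16406 for the members. Ccna2, Cdca8, Cdc20 and Nusap1 also overlap a gene on the opposite strand, for Cdc20 the gene Elovl1 with 13471 reads beside 32954.

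The anaphase genes Cdc20 and Ube2c held the highest levels per kilobase of all members. Cdc20, the APC/C activator, averaged 117 CPM per kilobase over the 6 libraries (SD 45.1) and Ube2c, the ubiquitin-conjugating enzyme of APC/C, 97.1 (SD 9.85), a distance within the SD of Cdc20 and beyond that of Ube2c. In CPM, Cdc20 was at 194.5, 337.0 and 163.6 in CTC and at 308.2, 172.1 and 131.2 in PT. CTC 2 and PT 1 were the high libraries, one in each group, and the log2 fold change was 0.18 (95% interval -0.77 to 1.14). Ube2c was far steadier, from 212.2 to 280.4 CPM. Pttg1, which encodes securin, was at 91.6 ± 12.2 and 110.2 ± 39.3 CPM, and Espl1, which encodes separase, at 118.6 ± 25.1 and 101.8 ± 16.8 CPM. Per kilobase, Pttg1 ranked 10 and Espl1 ranked 30 among the members.

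The spindle and cytokinesis genes had fold changes above 0 for all 5, from 0.05 to 0.40, none past the test. By pair, 5, 3 and 1 of the 5 were higher in CTC in pairs 1, 2 and 3. Tpx2, the spindle assembly factor that activates Aurora A, was at 178.1, 203.7 and 185.4 CPM across CTC 1 to 3, and 169.0, 183.4 and 195.0 CPM across PT 1 to 3, a range of 1.21-fold over all libraries. Anln, which encodes the cytokinesis scaffold anillin, was at 445.8 CPM in CTC 1, above the 224.5 to 323.6 CPM of the other 5 libraries. Ect2, the exchange factor that starts the contractile ring, was also highest in CTC 1, at 190.9 CPM, as were Prc1 (136.5 CPM), which bundles midzone microtubules, and Nusap1 (55.5 CPM), a spindle microtubule protein.

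Per kilobase, the other 38 members lay below Ube2c. The next in order, Plk1 (78.8), Ccnb2 (76.9) and Top2a (64.8), had SDs of 26.7, 8.48 and 11.5 CPM per kilobase over the libraries. Plk1 and Ccnb2 lay within the larger of their SDs of each other, while Ccnb2 and Top2a lay further apart than either of theirs. At the low end were Ndc80 (4.14, SD 1.69), Cenpf (4.76, SD 2.45) and Cenpe (5.9, SD 3.26). Cenpf lay within the SD of Ndc80, and Cenpe was further from Ndc80 than the SD of Ndc80 and nearer than its own. The 2 ends were clearly separate: the lowest Cdc20 library was at 70.2 and the highest Ndc80 library at 7.32 CPM per kilobase. A gene length that exceeds the transcript in use lowers such a level.

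**Figure D3:**
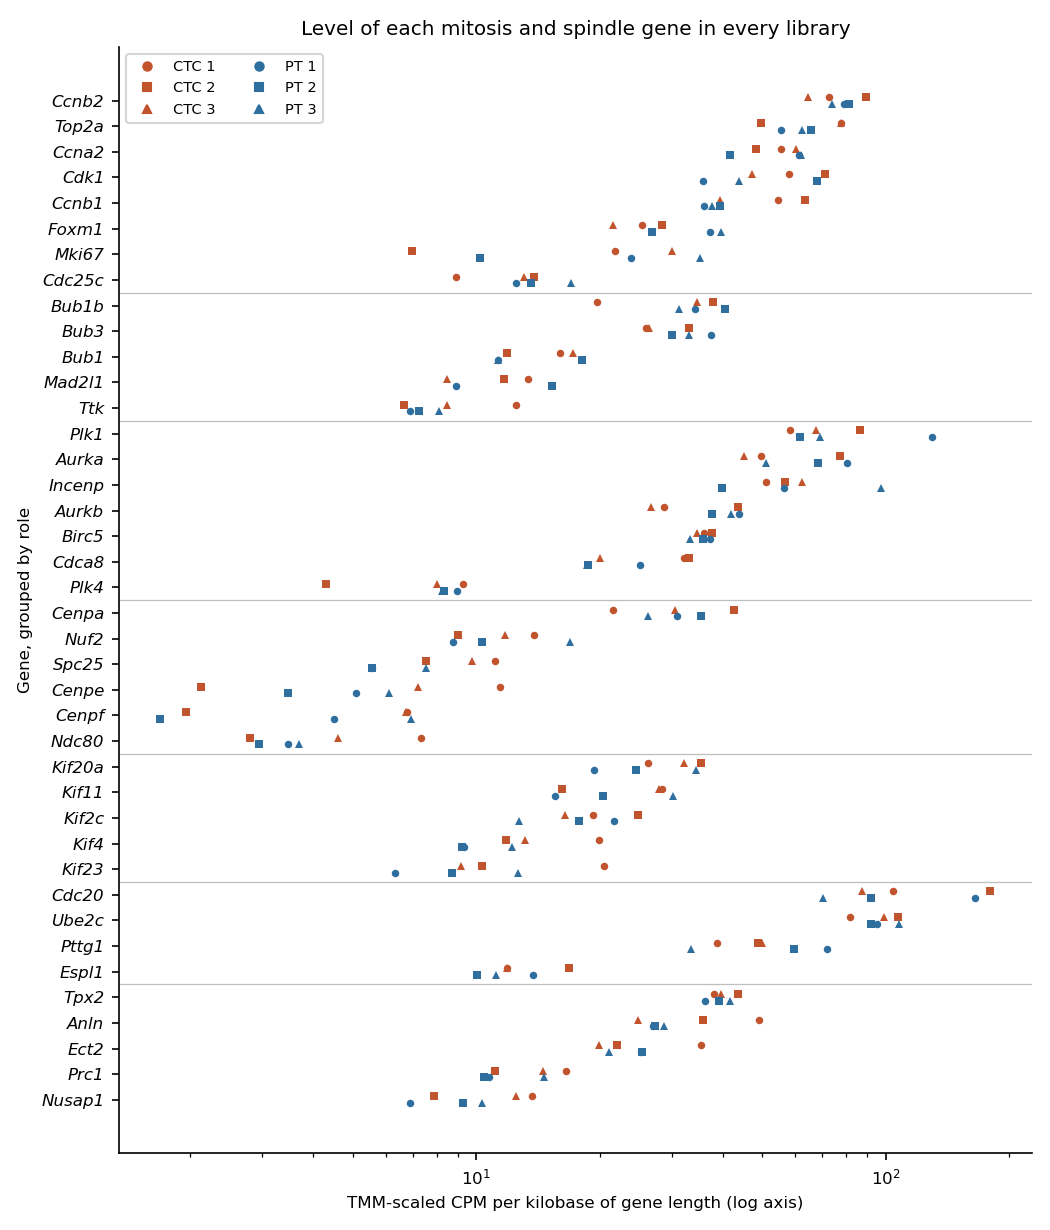
Level of each of the 40 genes in every library, in TMM-scaled CPM per kilobase of gene length on a log axis, grouped by role in the same order as the text. Orange marks are CTC and blue marks PT, with circles, squares and triangles for replicates 1, 2 and 3; the groups overlap except for Ccnb1.

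The members did not move as one block between libraries. The median of the 40 deviations from each gene's own mean was 0.16, -0.01 and 0.02 log2 units in CTC 1, 2 and 3 and -0.02, -0.12 and 0.00 in PT 1, 2 and 3. Of the 40, 12 were highest in CTC 1, 11 in CTC 2, 10 in PT 3, 5 in PT 1 and 2 in PT 2, and none in CTC 3, while the lowest library was spread evenly, with 6 to 8 members each. The median SD within groups was 0.344 log2 units, beside 0.394 for the 6659 tested genes in the same range of expression.

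Like CTC 1 (12 members at their highest, 6 at their lowest) and PT 3 (10 and 6), CTC 2 held members at both ends (11 and 6). The genes described here for CTC 2 were chosen after their values were seen. Mki67, the Ki-67 antigen used to count dividing cells, was at 70 CPM there and at 220.1 and 303.1 CPM in CTC 1 and 3, and in the matched tumour PT 2 it was at 102.5 CPM against 239.9 and 354.9 CPM in PT 1 and 3. Cenpf was low in the same 2 libraries, at 30.1 and 26.1 CPM against 69.3 to 106.7 CPM in the other 4, and so was Cenpe, at 18.3 and 29.9 CPM against 43.9 to 98.4 CPM. Both libraries of pair 2 thus had the lowest values of these 3 genes. In the same CTC 2 library Cdc20, Ccnb1, Cenpa, Cdk1, Kif2c, Kif20a, Espl1, Cdca8, Ccnb2, Birc5 and Tpx2 were each at their highest of all 6, so Ki-67 and the B cyclin gave opposite orders of the CTC libraries.

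**Figure D4:**
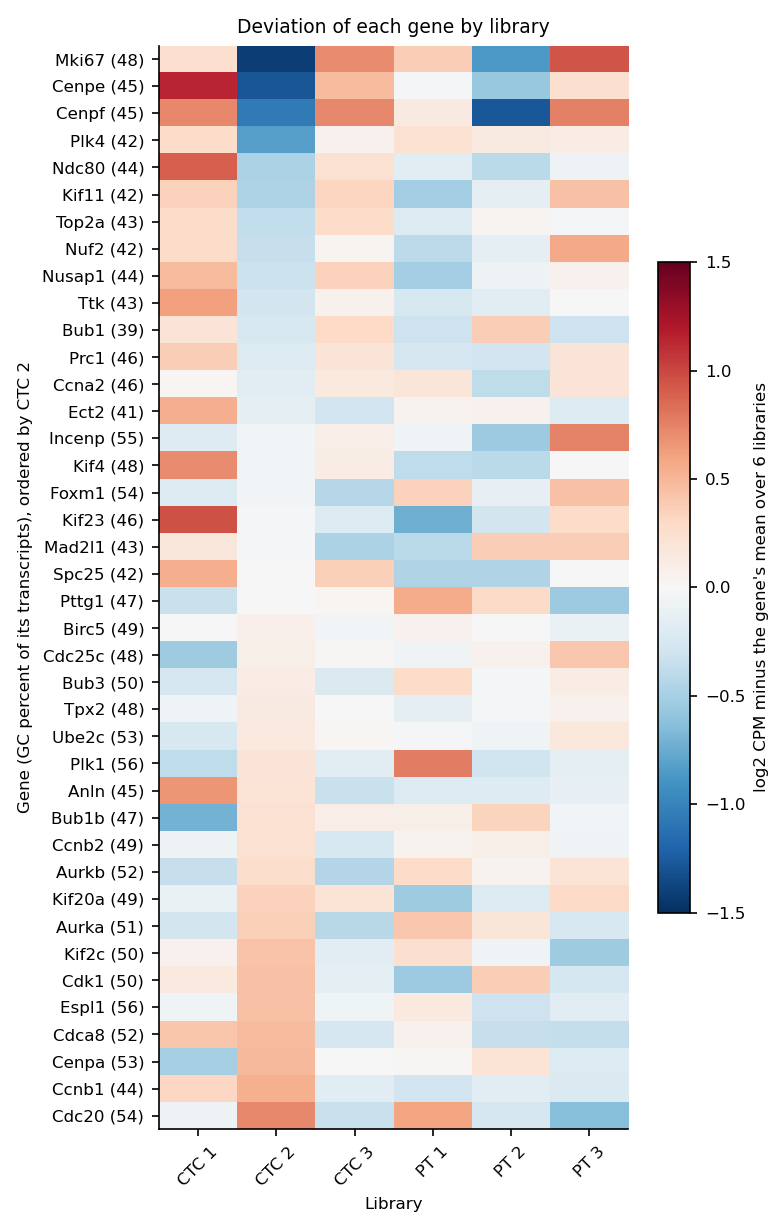
Log2 CPM of each gene (rows, with the GC percent of its transcripts in brackets) minus its mean over the 6 libraries (columns), with red above and blue below the mean. Rows are ordered by CTC 2, where Mki67, Cenpe and Cenpf lie lowest at -1.41, -1.28 and -1.06 and Cdc20 highest at 0.72.

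The deviations in CTC 1 and CTC 2 went in part with the base composition and length of the genes. Of the 13 members with under 45% GC in their transcripts, 13 were above their own mean in CTC 1 and 2 in CTC 2, while of the 11 members with at least 50% GC, 2 were above it in CTC 1 and 9 in CTC 2. Other tested genes went the same way: 78.3% of those under 45% GC and 38.6% of those with at least 50% were above their mean in CTC 1, and 32.4% and 58.3% in CTC 2. By length, the 13 members of at least 6000 bases had a median deviation of -0.35 in CTC 2 and the other genes of that length -0.08. Mki67, at 47.5% GC, lay at -1.41 in CTC 2, where other genes of 45% to 50% GC had a median of 0.01. Cenpe (45.1% GC) and Cenpf (45.3% GC) fall in the same band and lay at -1.28 and -1.06. Ccnb1, at 44.2% GC, lay at 0.53 in CTC 2, where other genes under 45% GC had a median of -0.24. The part of base composition and length in the members' values was not tested beyond the corrected fits: the median log2 fold change of the 40 was -0.03 after a GC correction and 0.04 after a length correction, and 0 members were called in either.

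**Figure D5:**
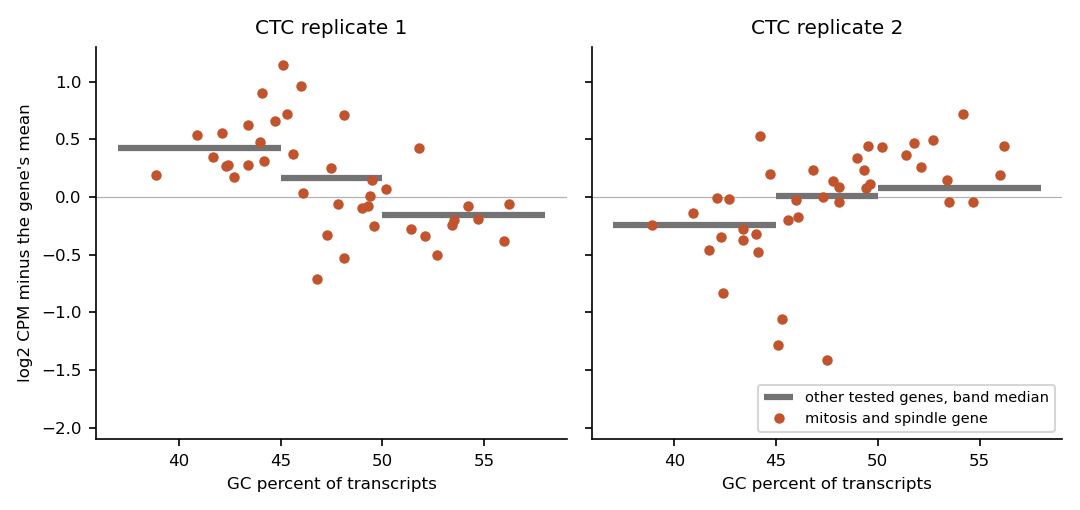
Deviation of each mitosis and spindle gene from its own mean (log2 CPM, vertical axis) against the GC percent of its transcripts, in CTC replicate 1 and CTC replicate 2. Points are the 40 genes and grey bars the median of the other tested genes in bands divided at 45% and 50% GC; the points slope down in CTC 1 and up in CTC 2.

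Smaller groups separate more easily. Leaving out any 1 library raised the share of all genes with separate groups from 12.1% to between 15.5% and 30.2%. Without CTC 2, 13 of the 40 members had no overlap, against 25.2% of all genes, and whether the members differ from all genes in this was not tested. Of the 13, 8 were higher in CTC (Top2a, Ccnb1, Ttk, Cenpe, Kif4, Nusap1, Ndc80 and Spc25) and 5 lower (Ccnb2, Bub3, Aurka, Aurkb and Foxm1). Without CTC 1, CTC 3, PT 1, PT 2 or PT 3 the count was 2, 3, 4, 5 and 7, against 15.5%, 30.2%, 19.1%, 20.2% and 29.6% of all genes. No member was called by edgeR without any of the 6 libraries.

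The rest of the mitotic machinery was as mixed. No gene of the further lists (APC/C subunits, condensin and cohesin, other centromere and kinetochore subunits, centrosome and spindle pole, other kinesins and cytokinesis genes, G2 regulators, and E2F and DREAM regulators) was called by edgeR in either direction, and every listed gene was tested. List medians of the log2 fold change ran from -0.16 for APC/C subunits to 0.20 for the centrosome list, where 16 of 19 were above 0. In the E2F and DREAM list 12 of 17 were above 0, with a median of 0.19. E2f1, the S-phase transcription factor and the gene of this list with the smallest p, went the other way. It had lower values in CTC without overlap, at 61.4 ± 8.74 against 98 ± 3.11 CPM (log2 fold change -0.67, adjusted p = 0.726, edgeR). Ska1, a kinetochore subunit that follows microtubule ends, was at 17.3 ± 5.29 against 37.7 ± 10.4 CPM, also without overlap (log2 fold change -1.12, adjusted p = 0.726, edgeR). Groups did not overlap for 23.5% of the E2F and DREAM list (2 higher and 2 lower in CTC), 16.7% of the G2 list and 13.3% of the other kinesins. The share was 8.82% for the kinetochore list, 5.26% for the centrosome list and 0% for the APC/C and cohesin lists, against 12.1% of all genes. Smc1a, of the cohesin ring, was at 269.7 ± 167 against 128.6 ± 35.9 CPM, and reached 460.8 CPM in CTC 2. The smallest p of the other lists belonged to Anapc4 (0.73), Tacc3 (0.38), Kif22 (-0.71) and Pkmyt1 (-0.61), given with their log2 fold changes, and each had an adjusted p of at least 0.726 (edgeR). Of these, Tacc3 was higher and Pkmyt1 lower in CTC without overlap, and Anapc4 and Kif22 overlapped.

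Genes of DNA replication, which act earlier in the cycle, had a median log2 fold change of -0.17 with 10 of 30 above 0, beside 0.12 with 24 of 40 for the mitosis and spindle genes. By pair, replication genes were higher in CTC for 13, 22 and 0 of 30 in pairs 1, 2 and 3, and mitosis and spindle genes for 22, 26 and 18 of 40. Over all 13874 genes tested the counts were 7304, 6875 and 6862. Lig1, the replicative DNA ligase, was at 110.6 ± 14.8 CPM over the CTC libraries and 195.7 ± 43.9 CPM over those of PT (log2 fold change -0.82, adjusted p = 0.726, edgeR). Its groups did not overlap. Such genes, all lower in CTC, were 3 of the 30 (10%), against 12.1% of all genes. The difference between the lists was not tested.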

How the data were processed

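RNA of 6 libraries (3 CTC, 3 PT) was read from 1 table of raw counts per gene, deposited by the authors with gene lengths, coordinates and biotypes. Per the submitters' processing notes, HISAT2 and the builds GRCm38 and mm10 were used; the sources used here do not name the read counter, versions, annotation or strand. Counts were fitted with edgeR 4.0.16 (R 4.3.3; glmQLFit, glmQLFTest, TMM, filterByExpr by group), with Benjamini-Hochberg adjustment over 13874 genes and a threshold of 0.05. A prior count of 2 entered log2 CPM, and each SE was taken from its F statistic. DESeq2 1.42.0 and limma 3.58.1 (voom) were alternatives, as were other scalings, filters, a replicate block and leaving out libraries or pairs. GC and length corrections (lowess, span 0.4) and DESeq2 with the block were chosen after seeing the data. The fits were tested on simulated data whose changes were larger than the members' fitted fold changes. Changes of the members' size were not simulated. Members and lists were chosen with earlier results of these data known.

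Named with every library were the 2 largest fold changes each way, members with an unadjusted p under 0.05 or separate groups, the highest and lowest level per kilobase, and the leading member of each role; from each further list, the gene with the smallest p. The labels match same-numbered libraries. Their deviations from the group means correlated across genes at -0.015, 0.157 and 0.298 for numbers 1, 2 and 3. Every pair of libraries differed beyond sampling noise (chi-square per degree of freedom at least 90.4). GC content is the median over GENCODE M21 transcripts, and promoters are from RefSeq (GRCm38.p6).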

Additional observations from a re-analysis of the deposited data

How the results depend on the processing

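Of the 40 mitosis and spindle genes, 0 were called under every alternative run, the replicate block included (smallest adjusted p = 0.773 with the block, edgeR). With edgeR the replicate block left the count over all genes at 0. Over all genes, DESeq2 called 91, DESeq2 with the replicate block 253, and edgeR without a filter on low counts 199, in place of 0; it was 0 without any library or pair. The members' median log2 fold change of 0.12 was 0.04 with a gene length correction and -0.03 with a GC correction. It was 0.03 with a GC correction and replicate block, and 0.04 with a gene length correction and replicate block. When libraries or pairs were left out it lay between -0.01 (without pair 2) and 0.15 (without pair 3). The count of members with separate groups was 2 without a filter, for which no share over all genes is given here. It was 2 to 13 without 1 library, against 15.5% to 30.2% of all genes.

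Sign changes, none called: Ccnb2 (-0.05) 0.03 with the length correction and 0.02 with length and replicate block; Cenpa (0.04) -0.01 with the replicate block, -0.01 in limma-voom, -0.02 and -0.08 with the length correction without and with the block, -0.03 in DESeq2 with the block; Tpx2 (0.05) -0.09 and -0.10 with the GC correction without and with the replicate block. Over left-out libraries and pairs the ranges were -0.20 to 0.05 for Ccnb2, -0.39 to 0.04 for Bub1b, -0.68 to 0.25 for Plk1, -0.25 to 0.27 for Cenpa, -0.32 to 0.74 for Cdc20 and -0.02 to 0.11 for Tpx2. The cause was not tested. Aurkb, Ccnb1, Foxm1, Kif20a, Kif4, Ndc80 and Spc25 kept their sign under all 21 alternatives. The number of libraries limits the precision, with a median half-width of 0.71 log2 units for the members' 95% intervals.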
